A study of Rattus norvegicus with 10 samples.

Results

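The genes described here were 7 genes of the sodium pump, the beta subunits Atp1b1 (NM_013113), Atp1b2 (NM_012507) and Atp1b3 (NM_012913) and the FXYD regulators Fxyd1 (NM_031648), Fxyd5 (NM_001270688), Fxyd6 (NM_022005) and Fxyd7 (NM_022008). They hold 9 of the 32041 RNA records in the count table. They were found by symbol, and where a gene had several records the one described was chosen by its mean count over all 10 rats. That applied to Fxyd5, whose 3 records had mean counts of 83.8, 79.5 and 78.1. The group labels took no part in that choice, but Fxyd1 had already been seen to be higher in injured rats when these genes were put together.

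The sodium pump of the cell membrane exports sodium and imports potassium at the cost of ATP. Each pump holds a catalytic alpha subunit, a glycosylated beta subunit that brings alpha to the membrane, and often a small single-span FXYD protein, named after a motif of its residues, that tunes the pump's affinity for ions. In brain the pump restores the ion gradients after neuronal firing, and astrocytes use it to clear potassium from the extracellular space.

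RNA was measured in 5 sham and 5 TBI rats, all adult male Sprague-Dawley animals weighing 330 to 371 g at the operation. All of them were anaesthetised with a mixture of sodium pentobarbital, chloral hydrate, magnesium sulphate, propylene glycol and ethanol, and had a craniectomy over the left parietal lobe with the dura left intact. The TBI rats then received a lateral fluid percussion impact of 3.32 atm, a pressure pulse on the dura, and the sham rats received none. Tissue with CA3 and dentate gyrus was taken from the left hippocampus 3 months later, and 1 library was made per rat. The labels also call this tissue dorsal hippocampus. They name no batch.

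Libraries held 23425817 to 31671838 counts on RNA records. Ribosomal RNA took 59.0% and 58.5% of these in sham replicates 4 and 5. It took 23.8% to 26.2% in the other sham rats and 12.5% to 25.5% in the TBI rats. The group medians were 26.2% in sham and 19.7% in TBI rats. Sham replicates 4 and 5 were the shallowest libraries outside ribosomal RNA, with 12987310 and 12686398 counts. The deepest sham library held 22089112 such counts, and the TBI libraries held 21336394 to 24735107. Ribosomal share and depth thus went in part with the group. Markers of dentate granule cells and of CA3 were present in every rat, at a summed level of 60.1 to 225 CPM and of 301 to 429 CPM. The lowest granule cell level was in sham replicate 1. CPM is the count scaled to a common library size after normalisation. Because the tissue was measured in bulk, fewer cells of a type and less RNA per cell cannot be told apart.

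Of the 7 genes only Fxyd1 differed between TBI and sham rats at an unadjusted p under 0.05, and in edgeR's quasi-likelihood test none did after Benjamini-Hochberg adjustment over all 22431 rows tested. Over all rows 7.89% passed p under 0.05, with 4.89% higher and 3% lower in TBI, and 0.196% passed p under 0.001, the threshold used in the study. After adjustment 0% passed 0.05. The 7 genes had 1 higher and 0 lower at p under 0.05, and the same gene passed p under 0.001. Their median log2 change was 0.10, beside -0.01 over all rows. Sham and TBI levels overlapped in 7 of the 7 genes, against rows without overlap making up 0.923% of the table. The plot of all rats shows these levels.

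**Figure D1:**
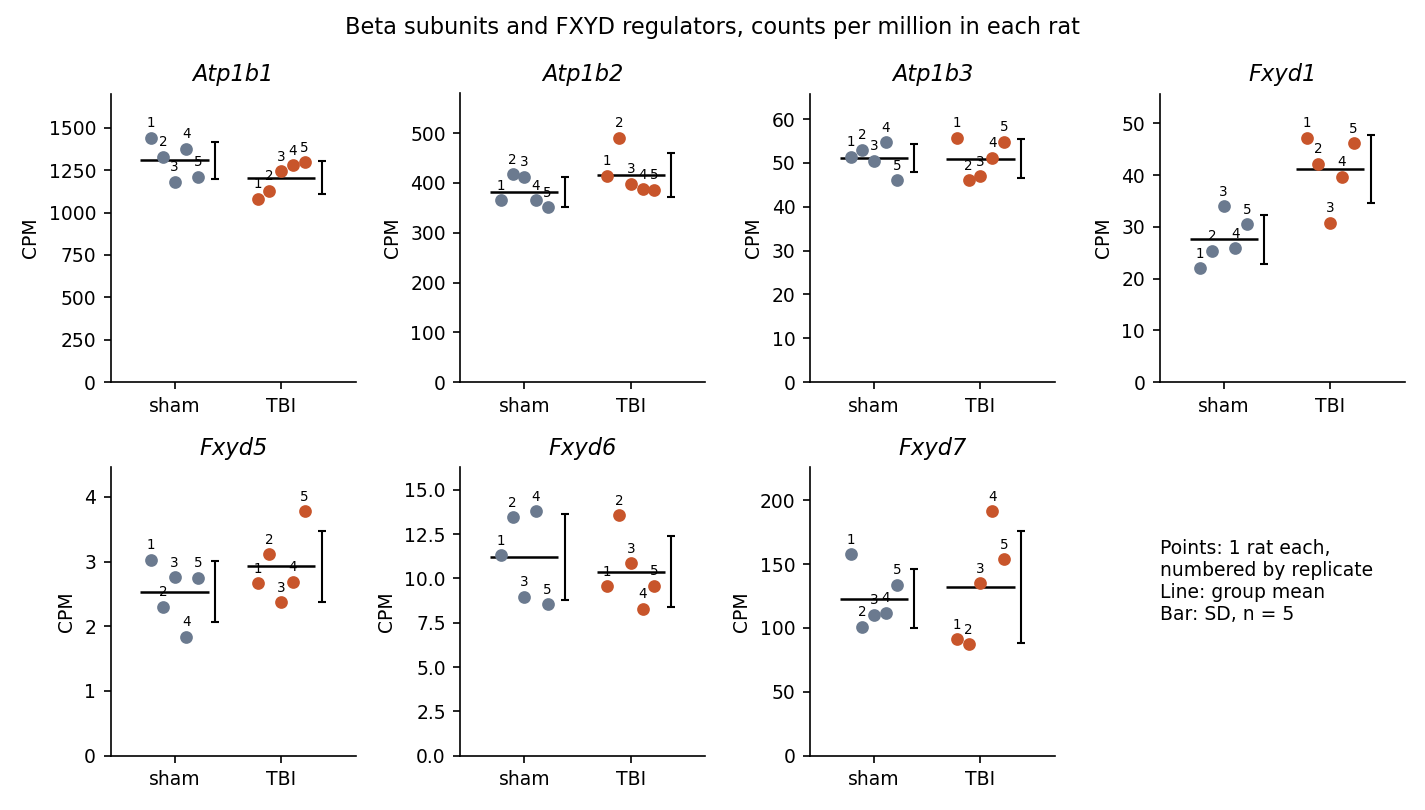
Level of each gene (y axis, CPM, starting at 0) in 5 sham and 5 TBI rats, with replicate numbers beside the points, the group mean as a line and the SD as a bar. Fxyd1 was higher in 4 of 5 TBI rats than in any sham rat, and the groups are mixed for the other genes.

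Fxyd1 encodes phospholemman, a regulator whose phosphorylation by protein kinases changes its effect on the pump. Its level was 22.1, 25.4, 34.0, 25.9 and 30.6 CPM in sham replicates 1 to 5 and 47.3, 42.2, 30.8, 39.7 and 46.1 CPM in TBI replicates 1 to 5. Of the TBI rats 4 were above every sham rat, while TBI replicate 3 lay below sham replicate 3. The sham mean was 27.6 CPM ± 4.69 (SD, n = 5). The TBI mean was 41.2 CPM ± 6.57 (SD, n = 5), 1.496-fold higher in the fit. The log2 change was 0.58 with a standard error of 0.125 and a 95% interval from 0.32 to 0.84 in the quasi-likelihood test of edgeR. The unadjusted p was 0.000248 and the adjusted p in edgeR 0.477. Leaving out any single rat gave log2 changes of 0.50 to 0.67. The p stayed under 0.05 in all 10 such fits and under 0.001 in 6, with the largest p, 0.00125, without sham replicate 2. The adjusted result did depend on the fit. Without TBI replicate 3 the log2 change of 0.67 had an adjusted p = 0.0384 in edgeR, and edgeR's exact test without robust estimation gave adjusted p = 0.0170, while over all 24 alternatives it ran from 0.0170 to 0.974. With the ribosomal RNA share as a covariate the log2 change was 0.61 and p was 0.00220.

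The 250 bases before the Fxyd1 start site are shown because Fxyd1 is the gene that passed, beside those of Atp1b2, the beta subunit that is typical of astrocytes, whose level is given further on. They were read from RefSeq on the GRCr8 assembly, which has an entry for 5 of the 7 genes, with none for Atp1b1 and Fxyd7. Capitals mark matches on either strand to 4 motifs. The TATA box was searched as TATAAA. For the GC box the letters were GGGCGG. Those of the CCAAT box are its name, and the E-box was searched as CANNTG. No match overlapped another in these 2 stretches. The Fxyd1 stretch lies at chr1:95418581-95418830 and that of Atp1b2 at chr10:54823709-54823958, both on the minus strand.
Fxyd1: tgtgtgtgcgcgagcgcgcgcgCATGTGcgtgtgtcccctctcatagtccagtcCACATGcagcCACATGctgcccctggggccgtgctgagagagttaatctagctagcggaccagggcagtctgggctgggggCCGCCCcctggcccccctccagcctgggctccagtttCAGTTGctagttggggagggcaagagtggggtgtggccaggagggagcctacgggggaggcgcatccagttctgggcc
Atp1b2: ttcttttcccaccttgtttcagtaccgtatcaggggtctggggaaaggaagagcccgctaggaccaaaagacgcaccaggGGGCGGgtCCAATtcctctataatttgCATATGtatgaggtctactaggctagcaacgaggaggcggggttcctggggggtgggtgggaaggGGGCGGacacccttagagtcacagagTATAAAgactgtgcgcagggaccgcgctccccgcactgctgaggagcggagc

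The Fxyd1 stretch held 4 E-boxes, from 228 to 78 bases before the start, and 1 GC box. It held no TATA or CCAAT box, whereas the Atp1b2 stretch had 1 TATA box 52 bases before the start, 1 CCAAT box, 2 GC boxes and 1 E-box. Among 33469 promoter stretches of this length 65.5% held an E-box, 30.5% a GC box, 34.0% a CCAAT box and 12.9% a TATA box. The letters TTCNNNGAA (STAT site), TGACTCA (AP-1 site) and TGACGTCA (CRE) occurred in neither stretch, and in 7.67%, 4.05% and 1.59% of all. The GC content was 66.8% for Fxyd1 and 58.0% for Atp1b2, against a median of 51.2%. These matches describe the sequence and do not show binding.

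Markers of other cell types also differed at an unadjusted p under 0.05 in edgeR, none after adjustment, and their counts are given beside the 7.89% of all rows at that threshold. The marker genes named here were chosen after their values were seen. Of 10 astrocyte genes 3 were higher in TBI (Gfap, the astrocyte intermediate filament, Aldh1l1 and S100b), and the list summed to 3055 to 4043 CPM in sham and 3361 to 4920 CPM in TBI rats. Of 8 genes of reactive astrocytes 5 were higher (Gfap, Vim, Lcn2, Cd44 and Timp1) and 1 was lower (Serpina3n). Lcn2, Timp1 and Serpina3n rested on few counts, 4 to 47, 8 to 85 and 3 to 60 per library. Serpina3n was 0.0936 and 0.108 CPM in sham replicates 1 and 2, within its TBI range of 0.0798 to 0.235 CPM. The reactive list summed to 816 to 1703 CPM in sham and 1027 to 2486 CPM in TBI rats. Gfap is in both lists and made up most of the second sum, at 776 to 1628 CPM in sham and 980 to 2308 CPM in TBI rats. Without Gfap the astrocyte genes summed to 2160.0 to 2535 CPM in sham and 2280 to 2729 CPM in TBI rats, and the reactive genes to 40.6 to 74.6 CPM and 47.1 to 178 CPM. Vim made up most of that reactive sum, at 28.9 to 62.1 CPM in sham and 37.6 to 153 CPM in TBI rats. In the reactive list, with or without Gfap, sham replicate 3 was the highest sham rat and TBI replicate 3 the lowest TBI rat, as for Fxyd1. The same rats held these places in the astrocyte list with Gfap, but not without it, and in the microglial and ependymal lists. They held both places in none of the other marker lists, such as those of meninges and fibroblasts, endothelium and choroid plexus.

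Ependymal genes (2 of 4 tested higher, Foxj1 and Rsph1) summed to 9.86 to 19.6 CPM in sham and 18.3 to 30.02 CPM in TBI rats. Genes of meninges and fibroblasts (4 of 8 higher, Col1a1, Col1a2, Igf2 and Slc6a13) summed to 9.81 to 23.9 CPM and 17.9 to 28.3 CPM, and microglial genes (3 of 10 higher, Aif1, C1qa and C1qb) to 192 to 304 CPM and 233 to 324 CPM. Choroid plexus genes (1 of 7 tested higher, Folr1) summed to 6.82 to 36.4 CPM and 12.5 to 36.7 CPM, with the highest sums in sham replicate 4 and TBI replicate 4. Blood genes (1 of 2 tested higher, Alas2) summed to 44.6 to 82.1 CPM and 61.3 to 90.7 CPM. Of 7 genes of GABAergic neurons 2 were lower, Gad1 and Gad2, the latter without overlap of the groups, and the list summed to 183 to 254 CPM in sham and 134 to 217 CPM in TBI rats. Of 5 CA3 genes 1 was lower (Prss35), with summed levels of 301 to 429 CPM and 313 to 413 CPM. No call was made among oligodendrocyte, endothelial, general neuronal and granule cell genes. No marker tested was at 0 in any library, but Folr1, Col1a2 and Slc6a13 fell to 9, 10 and 12 counts in their lowest library. The part of these cell types in the Fxyd1 difference was not tested.

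The genes whose levels followed Fxyd1 most closely over the 10 rats were Pyroxd2, Pdlim3 and Ftl1, the ferritin light chain. After centring each gene on its own mean, their log2 levels were on average 0.0852, 0.102 and 0.103 away from those of Fxyd1, while Fxyd1 itself was 0.318 away from its mean. Their log2 changes were 0.48, 0.45 and 0.37. These 3 were picked among 11281 rows for this likeness, so their changes follow from the choice.

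Fxyd5, Fxyd7, Fxyd1 and Fxyd3 lie next to each other on rat chromosome 1, with Lgi4 between Fxyd1 and Fxyd3. Lgi4, a secreted protein needed by myelinating Schwann cells, is described only because of this place and was singled out after its values had been seen. It was 61.6, 52.8, 79.1, 59.0 and 61.7 CPM in sham replicates 1 to 5 and 95.7, 95.3, 66.8, 82.8 and 88.9 CPM in TBI replicates 1 to 5. As for Fxyd1, 4 of the TBI rats were above every sham rat and TBI replicate 3 was below sham replicate 3. The log2 change was 0.45 (SE 0.111) and the unadjusted p 0.000766 in edgeR (adjusted p = 0.477), and p stayed under 0.05 whichever rat was left out. With the ribosomal RNA covariate Lgi4 had a log2 change of 0.41 and a p of 0.0125.

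Fxyd3, a further member of the regulator family, showed a log2 change of 0.31 (SE 0.135) at an unadjusted p of 0.0315 in edgeR (adjusted p = 0.589). It rests on 59 to 210 counts per library. That call was lost without sham replicate 1, 2 or 5 or TBI replicate 1 or 5, where the unadjusted p ran from 0.0503 to 0.104, and in limma, where it was 0.108. The spans of Lgi4 and Fxyd3 overlap in the annotation, and no source states whether strand was used in counting, so reads of these 2 genes may not be separated. The spans of Fxyd5, Fxyd7, Fxyd1 and Lgi4 do not overlap. Nearby tested genes outside this stretch, Mag, Usf2 and Lsr on one side and Hpn and Gramd1a on the other, had log2 changes from -0.05 to 0.17 and adjusted p from 0.681 to 0.984 in edgeR. The plot in chromosome order sets these changes side by side.

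**Figure D2:**
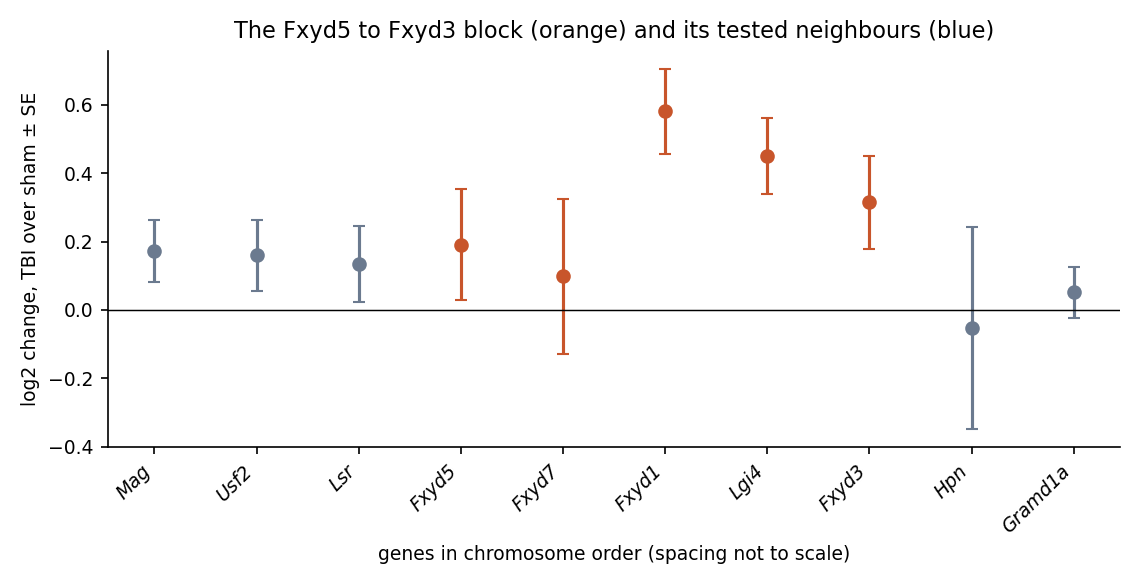
Log2 change of TBI over sham with its standard error (y axis) for the genes from Fxyd5 to Fxyd3 in orange and nearby tested genes, 3 before and 2 after, in blue, in chromosome order with spacing not to scale. Fxyd1, Lgi4 and Fxyd3 lie at 0.58, 0.45 and 0.31, and the remaining genes between -0.05 and 0.19.

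Fxyd7 is a regulator found mainly in brain neurons. It was 158, 101, 110.4, 112 and 134 CPM in sham replicates 1 to 5 and 91.3, 87.2, 135, 192 and 154 CPM in TBI replicates 1 to 5. TBI rats lay on both sides of the sham rats, with TBI replicates 1 and 2 below every sham rat and TBI replicate 4 above every one. The log2 change was 0.10 with a standard error of 0.227 and a 95% interval from -0.41 to 0.61 (adjusted p = 0.946 in edgeR). Leaving out 1 rat gave -0.07 (without TBI replicate 4) to 0.22 (without TBI replicate 2), a shift of over 1.5 times except without sham replicate 5 or TBI replicate 3. General neuronal genes were also lowest in TBI replicates 1 and 2, with summed levels of 2705 and 2752 CPM against 2906 to 3689 CPM in the other 8 rats, and their part in the Fxyd7 levels was not tested. The genes nearest to Fxyd7 in pattern were Cabp1, a neuronal calcium-binding protein, and Nrgn, neurogranin, a calmodulin-binding protein of the postsynapse, at mean log2 distances of 0.0799 and 0.110, followed by Csrnp1 at 0.118.

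Fxyd6, also called phosphohippolin, was 8.56 to 13.8 CPM in sham rats and 8.29 to 13.6 CPM in TBI rats. Its log2 change was -0.11, with a 95% interval from -0.42 to 0.21 (adjusted p = 0.899 in edgeR). Both groups covered nearly the same range. The change was -0.03 without sham replicate 2 and -0.04 without sham replicate 4 or TBI replicate 4, against -0.18 and -0.19 without sham replicates 3 and 5 and -0.23 without TBI replicate 2. Its nearest genes were Kctd21, Cds2 and Olfml2a, at mean log2 distances of 0.0899 to 0.111.

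Fxyd5, or dysadherin, a regulator known from epithelia for its effect on cell adhesion, was the least counted of the 7 genes, with 27 to 146 counts per library. The record with the highest mean count was 3.03, 2.30, 2.76, 1.84 and 2.75 CPM in sham replicates 1 to 5 and 2.67, 3.11, 2.38, 2.69 and 3.78 CPM in TBI replicates 1 to 5. Only TBI replicates 2 and 5 exceeded every sham rat. Its log2 change was 0.19 with a standard error of 0.162 and a 95% interval from -0.15 to 0.53 (adjusted p = 0.817 in edgeR). Leaving out TBI replicate 5 or sham replicate 4 lowered it to 0.08 and 0.11. The other 2 records of Fxyd5 had log2 changes of 0.21 (adjusted p = 0.780 in edgeR) and 0.38 (adjusted p = 0.555). The latter passed the unadjusted threshold, with a p of 0.0206. Records of 1 gene may share reads, so they are not independent measurements. With the 3 summed the change was 0.26 and the unadjusted p 0.0474 in edgeR (adjusted p = 0.627). With the ribosomal RNA covariate the main record had a change of 0.02 (adjusted p = 0.993). The nearest genes in pattern were Nfkbie, Nppc and Hps6, at mean log2 distances of 0.0860 to 0.102.

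Among the beta subunits, Atp1b1 is the common neuronal form. It was 1443, 1330.5, 1183, 1377 and 1212 CPM in sham replicates 1 to 5 and 1081, 1129, 1246, 1281 and 1299 CPM in TBI replicates 1 to 5. All 5 TBI rats were below the sham mean, but the groups overlapped. The log2 change was -0.12 with a standard error of 0.0868 and a 95% interval from -0.30 to 0.06 (adjusted p = 0.782 in edgeR). Its nearest genes were Cstpp1, Cops3 and Mtch2, at mean log2 distances of 0.0269 to 0.0281.

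Atp1b2 was first described as an adhesion molecule on glia. It was 365, 418, 412, 366 and 351 CPM in sham replicates 1 to 5 and 414, 491, 399, 388 and 386 CPM in TBI replicates 1 to 5. All 5 TBI rats were above the sham mean and TBI replicate 2 was above every sham rat. The log2 change was 0.12 with a standard error of 0.0863 and a 95% interval from -0.06 to 0.30 (adjusted p = 0.777 in edgeR). It was 0.05 without TBI replicate 2 and 0.03 with the ribosomal RNA covariate. Its nearest genes were Bbs1, Wdr91 and Ankrd54, at mean log2 distances of 0.0436 to 0.0554.

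Atp1b3, a more widely expressed beta subunit, was 46.1 to 54.7 CPM in sham rats and 46.1 to 55.8 CPM in TBI rats. The log2 change was -0.0041 (SE 0.0786), and its 95% interval from -0.17 to 0.16 (adjusted p = 0.997 in edgeR) was the narrowest of the 7 genes. Snx1, Ankra2 and Gucy1a1 were nearest in pattern, at mean log2 distances of 0.0312 to 0.0426.

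A further list held 8 other sodium pump genes. Of these 5 were tested, with 1 higher (Fxyd3) and 0 lower at p under 0.05 in edgeR and none after adjustment. Over all rows 7.89% passed p under 0.05. Fxyd2 and Atp1b4 had records below the count filter, and Fxyd4 was not analysed here.

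**Figure D3:**
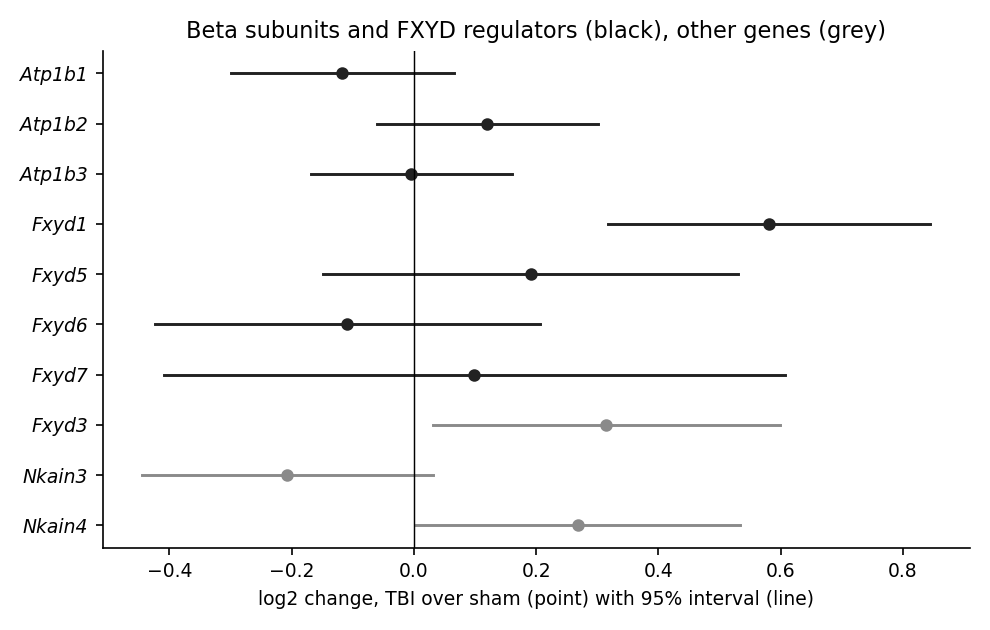
Log2 change of TBI over sham (x axis, points) with 95% intervals (lines) for the 7 genes in black and for Fxyd3, Nkain3 and Nkain4 in grey. Among the black lines the interval of Fxyd1, from 0.32 to 0.84, is the one that does not reach 0.

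Of 10 partners of the pump 7 were tested, and Nkain4, which binds the beta subunit, was the only one to pass, with a log2 change of 0.27 (SE 0.126) and an unadjusted p of 0.0476 in edgeR (adjusted p = 0.628). Nkain4 missed the threshold in 7 of 10 leave-one-out fits, all except those without sham replicate 3, TBI replicate 3 or TBI replicate 4, where the highest p was 0.0369. In the 7 the unadjusted p ran from 0.0523 to 0.143, with the smallest log2 change, 0.18, without sham replicate 5, and it was 0.357 with the ribosomal RNA covariate, 0.0903 in limma and 0.0506 in DESeq2. Of 23 related ion pumps, exchangers, carriers and channels, 21 were tested and 0 passed p under 0.05 in edgeR. They included the potassium channel Kcnj10 (log2 change 0.17, adjusted p = 0.760 in edgeR) and the glutamate carriers Slc1a2 (0.06, adjusted p = 0.927) and Slc1a3 (adjusted p = 0.999). The water channel Aqp4 fell just short, with a log2 change of 0.53 and an unadjusted p of 0.0539 in edgeR (adjusted p = 0.637). Median log2 changes of the 3 lists were -0.03, 0.03 and -0.03. Their calls stand beside the 7.89% of all rows at p under 0.05 in edgeR.

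Ratios of 2 genes within a library were compared because they do not depend on library size. For every 100 counts of Atp1b2 there were 6.04, 6.07, 8.25, 7.09 and 8.69 counts of Fxyd1 in sham replicates 1 to 5 and 11.4, 8.601, 7.73, 10.2 and 11.9 in TBI replicates 1 to 5. TBI replicates 1, 4 and 5 were above every sham rat. The log2 ratio differed by 0.46 (two-sided exact permutation p = 0.0397), higher than the sham mean in 5 of 5 TBI rats, with an adjusted p of 0.238 over 6 ratios in the exact permutation test. Fxyd1 was already known to be higher when this ratio was formed. The exact permutation p lay between 0.0635 and 0.0714 without sham replicate 1, 2 or 4 or TBI replicate 1, 4 or 5, and was 0.0536 without both sham rats rich in ribosomal RNA.

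The log2 ratio of Fxyd1 to Fxyd7 differed by 0.53 (two-sided exact permutation p = 0.190), with TBI replicates 1 and 2 the highest and the other TBI rats among the sham rats. The ratio of Atp1b2 to Atp1b1, glial to neuronal beta subunit, differed by 0.23 (p = 0.127, exact permutation), and by 0.15 without TBI replicate 2. Those of Fxyd5 to Fxyd6 and Atp1b3 to Atp1b1 differed by 0.31 and 0.11, with exact permutation p of 0.317 and 0.262. The former was 0.12 without sham replicate 4 and 0.19 without TBI replicate 5, and the latter 0.04 without TBI replicate 1. After adjustment over the 6 ratios computed, each of these 4 had a p of 0.381 in the exact permutation test, and the smallest unadjusted p that 10 rats allow is 0.00794.

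**Figure D4:**
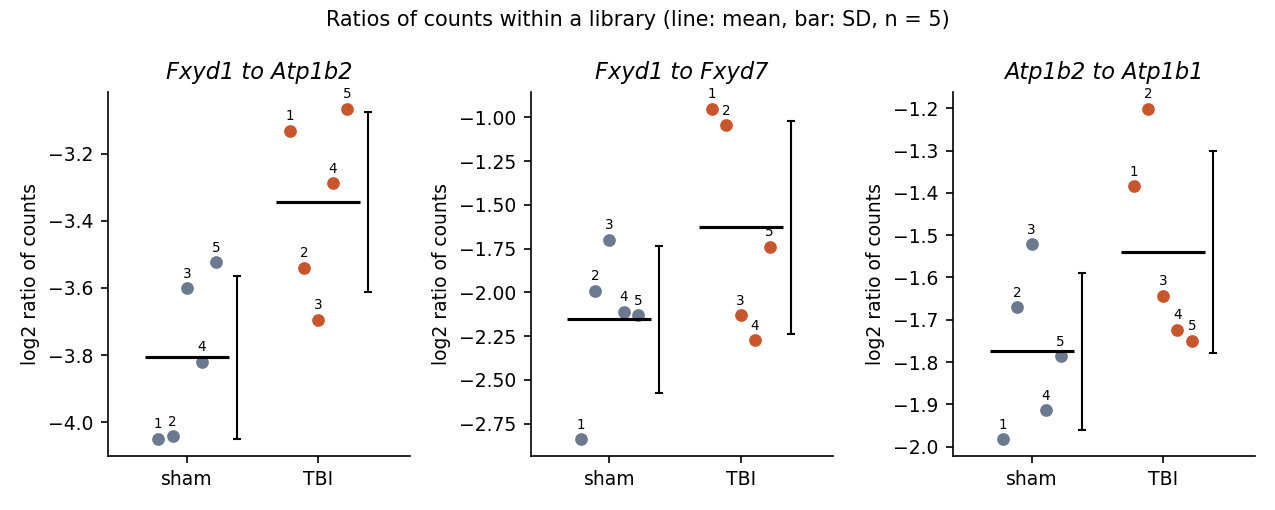
Log2 ratio of counts within a library (y axis) for Fxyd1 to Atp1b2, Fxyd1 to Fxyd7 and Atp1b2 to Atp1b1 in 5 sham and 5 TBI rats, with the mean as a line and the SD as a bar. For Fxyd1 to Atp1b2 all TBI rats lie above the sham mean of -3.81, and the groups overlap in each panel.

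The Fxyd1 difference was set against the choice of normalisation. Scaling by total counts, which reads ribosomal RNA as library size, moved the median over the whole table from -0.01 to 0.50 on the log2 scale. Relative to that median Fxyd1 changed by 0.59 in the main test and by 0.59 with this scaling, Atp1b1 by -0.11 in both and Atp1b2 by 0.13 and 0.10. In the other 13 fits that kept the rats or left out both ribosome-rich sham rats, the Fxyd1 log2 change was 0.50 to 0.61.

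**Figure D5:**
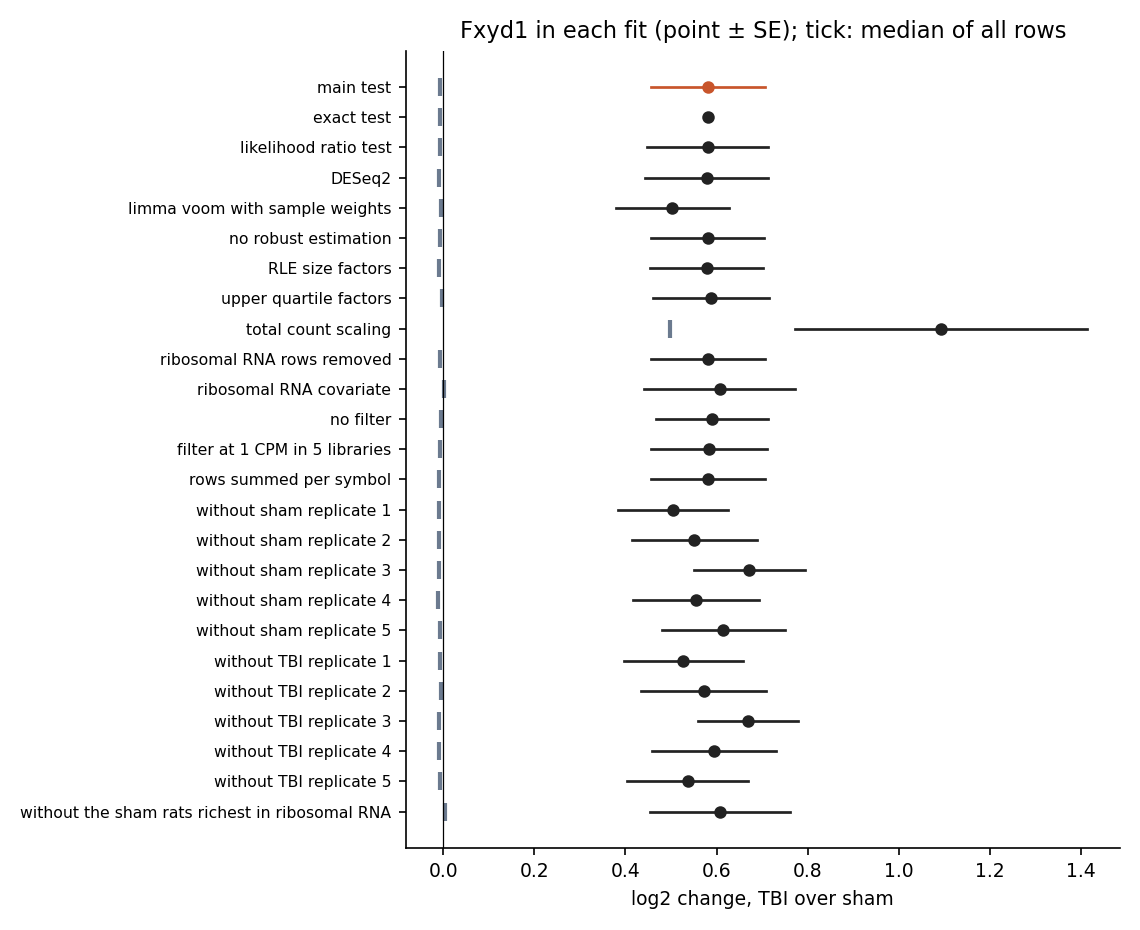
Log2 change of Fxyd1 in TBI over sham (x axis, points) with its standard error (lines, none for the exact test) in the main test in orange and in 24 alternative fits in black, with the median of all rows as a tick. Each point lies at 0.50 or above, and total count scaling, at 1.09, is the fit in which the tick also moves, to 0.50.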

How the data were processed

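The authors sequenced poly-A selected RNA as single reads of 36 bases, aligned them to the rat genome with BWA and deposited the raw read counts of each rat separately, with 1 row for each RefSeq RNA record. Their methods name Ensembl transcripts, while the rows carry RefSeq names, a difference not settled here. Unmapped reads (median 22.2% of a library) and an empty row were left out. Rows were named from RefSeq genes of GRCr8, used for names and gene order, which gave a symbol to 54.2% of rows.

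Rows with a total of at least 44 counts, the 30th percentile, were kept, as in the study. TBI and sham rats were compared with the quasi-likelihood test of edgeR 4.0.16 (TMM, robust estimation) in R 4.3.3. Adjustment was by Benjamini-Hochberg, and every change is given as TBI relative to sham. Ratios of counts were compared by exact permutation of the rats. Likeness of pattern was the mean absolute difference of centred log2 CPM (prior count 2) among rows with a mean of at least 1 CPM. DESeq2 1.42.0 and limma 3.58.1 were alternatives. Intervals cover the spread between these rats only.

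The genes, lists and tests were chosen with earlier results of these data known. All 7 genes were named with every record, as were genes of the 3 lists of pump genes, partners and related carriers at p under 0.05 and the 3 genes nearest in pattern to each. Some other listed genes, 1 ratio and 1 neighbouring gene are not reported here. Replicate numbers only name the rats and pair none. The labels' 5 sham rats were used, although the methods count fewer controls for this profiling. Figures were drawn with matplotlib 3.10.9.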

Additional observations from a re-analysis of the deposited data

Results flagged for a closer look

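In 66 groups of 5 rats (the 7 genes, other named pump genes, ratios, marker sums and the ribosomal share), 4 held 1 rat whose distance from its neighbours passed the 95% limit of Dixon's test. About 3.3 would do so by chance. TBI replicate 2 had 491 CPM of Atp1b2, against 386 to 414 CPM in the other TBI rats. Sham replicate 3 had a summed level of 1703 CPM of reactive astrocyte genes, against 816 to 962 CPM in the other sham rats. Among sham rats it also had the most Fxyd1, the highest sums of astrocyte, microglial and ependymal genes and the lowest of GABAergic genes. Sham replicate 4 had 36.4 CPM of choroid plexus genes, against 6.82 to 14.7 CPM. Sham replicate 1 had 60.1 CPM of dentate granule cell genes, against 182 to 225 CPM, and was the sham rat with the least Fxyd1 and the most Fxyd7. Whether such levels of a rat are linked was not tested.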

How the results depend on the processing

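The Fxyd1 difference kept its direction and an unadjusted p under 0.05 in all 24 alternatives, and its adjusted p was under 0.05 in 2 of them, edgeR's exact test and the fit without TBI replicate 3. At an adjusted p of 0.05 the count over all rows was 0 in the main test (1769 rows at an unadjusted p under 0.05), 51 with edgeR's exact test without robust estimation, 3 with DESeq2 and 92 with total count scaling, and from 0 to 12 when each rat was left out (5 without sham replicate 3, 12 without TBI replicate 3). Of the 7 genes, 1 passed p under 0.05 in the main test and in each fit that left out a rat, and 2 passed with total count scaling and with records summed per symbol, Fxyd5 being added in both. The 3 lists of pump genes, partners and related carriers had 5, 7 and 21 genes tested. Of these listed genes 2 passed in the main test and 5 with total count scaling. Beside them, 7.89% of all rows passed in the main test, and 3788 of 22431 rows with that scaling. Leaving out a rat gave 0 (without sham replicate 2 or TBI replicate 1) to 4 (without TBI replicate 3) listed genes. Without sham replicate 4, TBI replicate 2 or TBI replicate 5 it was 1. Total count scaling turned the log2 changes of Atp1b1, Atp1b3 and Fxyd6 to 0.38, 0.49 and 0.40, since it moved all rows. Atp1b3, near 0, was also 0.0027 with upper quartile factors, 0.0042 without a filter, and ran from -0.042 to 0.030 when each rat was left out (above 0 without sham replicate 2, sham replicate 4, TBI replicate 2 or TBI replicate 3). Fxyd7 ran from -0.074 (without TBI replicate 4) to 0.22. The ratio of Fxyd1 to Atp1b2 differed by 0.55 without both ribosome-rich sham rats (exact permutation p = 0.0536), with fewer rats, and by 0.39 to 0.55 when each rat was left out. The cause of the other changes was not tested. Rows past p under 0.05 ranged from 992 with the ribosomal RNA covariate to 3788 with total count scaling, and those past 0.001, 44 in the main test, lay between 9 (sham replicate 2 left out) and 196 (sham replicate 3 left out), with 174, 126 and 113 in the exact test, the likelihood ratio test and DESeq2. With total count scaling the calls at p under 0.05 were 3762 higher and 26 lower, against 1097 and 672 in the main test. No paired analysis was possible because the labels number the rats singly and pair no sham rat with an injured one. Fxyd5 had the fewest counts of the 7 genes, 27 in its lowest library.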
